A study of Mus musculus with 22 samples.

Results

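The RNA 3′ ends described here are all poly(A) site positions that the deposited tables list on the minus strand of the mouse mitochondrial genome (chrM, mm9). They were chosen by chromosome and strand alone. They comprise 613 of the 612268 positions listed over the 20 libraries, against 597 on the plus strand of chrM, and they hold 514984 reads. Listed positions within 12 nt of a stronger one were joined to it, which left 383 main sites of 583831 in the whole series, called by their strongest position below. Of the 613 positions, 5 had reads in all 20 libraries and 117 had reads in a single library. Of the 383 main sites, 95 held at least 100 reads and 96 held fewer than 10.

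The libraries were made by 3′READS, an assay that selects poly(A)+ RNA, fragments it and sequences the piece next to the tail, so that each read gives a 3′ end. The study asks how PCF11, a factor of nuclear mRNA 3′ end processing, affects poly(A) site choice and isoform stability in mouse cell lines that the labels all give as C57BL/6. The 20 libraries form 10 groups of 2, and 10 comparisons were made between them. In C2C12 myoblasts, siPcf11 and control cells (labelled Untreated, with no control siRNA named) gave 4sU libraries, from RNA labelled with 4-thiouridine at 50 µM for 1 h before harvest, and total RNA libraries, which the sample names call input. Total RNA of 4T1 mammary carcinoma cells labelled Pcf11-IPAKO, in which an intronic poly(A) site of Pcf11 is deleted, was set against control 4T1, and total RNA of siPcf11 NIH3T3 fibroblasts against control NIH3T3. The remaining groups were differentiated and proliferating C2C12. Transfection and loss of Pcf11 cannot be told apart in the siPcf11 comparisons. Whether the 2 libraries of a group stem from different cultures is not stated, and the p-values therefore cover only library-to-library spread, possibly technical.

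Mitochondrial DNA is transcribed from both strands. Transcription from the light-strand promoter in the noncoding control region gives minus-strand RNA that carries the mRNA of Nd6, a subunit of respiratory complex I, and 8 tRNAs, and is otherwise antisense to the rRNAs and mRNAs of the plus strand. Most mitochondrial RNAs are freed by cuts at the borders of the tRNAs between them, with RNase P cutting at the tRNA 5′ end, and most antisense RNA is degraded. In human cells a short polyadenylated RNA from the light-strand promoter has been described that ends within the control region, and human ND6 mRNA lacks a poly(A) tail.

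The libraries held 1887532 to 4432717 reads. Replicate libraries of the 4T1 groups and of siPcf11 NIH3T3 stood farther apart than the others, with replicate chi-square values of 11.8 in Pcf11-IPAKO 4T1, 14.3 in control 4T1 and 16.8 in siPcf11 NIH3T3 per degree of freedom over 1 kb bins, against 2.08 to 3.08 in the other groups. Pcf11-IPAKO 4T1 libraries also listed more positions over the whole genome, 105666 and 203899, than control 4T1 libraries, 53146 and 97285. The level of Pcf11 itself was not analysed here, because the tables pair no gene with a site. CPM below means reads per 1000000 of a library's total. Fold changes and p-values came from edgeR's quasi-likelihood test with TMM scaling, with Benjamini-Hochberg adjustment over all features of the genome and a threshold of 0.05, and each log2 fold change is given with the standard error (SE) of the fit.

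Most minus-strand reads were not antisense to any gene. The 21 main sites of the control region held 483811 reads, 93.9% of all minus-strand reads. A single site in the control region, at position 16123, held 430533 reads or 83.6%, and the other 20 sites there held 10.3%. The 330 sites antisense to plus-strand genes held 3.62% of the reads, of which 231 sites antisense to mRNA genes held 15085 reads, 17 antisense to tRNAs held 2278 and 82 antisense to rRNAs held 1284. The 5 sites within 2 nt of the base just before the 5′ end of a minus-strand tRNA held 8537 reads, and 19 sites inside Nd6 held 2547. Another 7 sites lay inside a minus-strand tRNA, with 1317 reads, and a site within 2 nt of the 3′ end of a minus-strand tRNA had 125.

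The strongest site carried most of the strand in nearly every library. It took 86.0% and 86.3% of minus-strand reads in siPcf11 4sU RNA and 84.2% and 83.4% in control 4sU RNA of C2C12, and 84.2% and 84.4% in siPcf11 total RNA and 84.0% and 84.8% in control total RNA. In 4T1 its share differed between replicates, at 91.0% and 74.0% in Pcf11-IPAKO and 94.5% and 76.6% in control cells. NIH3T3 had the lowest shares, 64.6% and 70.3% in siPcf11 and 46.0% and 51.2% in control cells. Differentiated C2C12 had 80.3% and 78.6%, and proliferating C2C12 had 83.1% and 85.1%. The tables list this site at 16121 in all 4T1 libraries (11589 reads in Pcf11-IPAKO and 4749 in control 4T1) and at 16123 in all others, so site comparisons between cell lines depend on joining positions.

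The next strongest sites also lay in the control region, at 16169 with 30738 reads, 46 nt from the strongest, and at 16037 with 15905 reads, 86 nt from it on the other side. In the direction of minus-strand transcription the order is 16169, 16123, 16037. NIH3T3 had no read listed at 16169 or 16037 itself. Reads at 16161 (59 in siPcf11 and 42 in control NIH3T3) were joined to 16169. Those at 16026 (9 in siPcf11 and 7 in control) were joined to 16037. Reads at 16054, 99 in each of these groups, were not joined to 16037. In 4T1 the site at 16169 is listed at 16164. The weaker control-region sites among the 10 strongest were 15909 (1590 reads), 16097 (972 reads) and 15988 (941 reads). Outside the control region the strongest were the tRNA borders at 14140 before TrnE (glutamate tRNA, 2925 reads), 15423 before TrnP (proline tRNA, 2496 reads) and 3843 before TrnQ (glutamine tRNA, 2055 reads), and a site antisense to the leucine tRNA TrnL1 at 2695 (1737 reads).

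Minus-strand ends were far more abundant in 4sU RNA than in total RNA of C2C12. The strand as a whole had 32939 and 38131 CPM in siPcf11 4sU RNA and 31667 and 36119 CPM in control 4sU RNA, against 7338 and 7752 CPM in siPcf11 total RNA and 6535 and 8136 CPM in control total RNA. The 4sU and total RNA libraries did not overlap in either treatment. The strand rose by a log2 fold change of 2.30 (SE 0.10, adjusted p = 3.01e-72) in siPcf11 cells and 2.15 (SE 0.10, adjusted p = 2.82e-66) in control cells. Of all features tested in these fits (1 kb bins and the chrM strands), 15.1% changed in siPcf11 and 23.3% in control cells, 8.15% and 10% upward and 6.91% and 13.3% downward. The plus strand of chrM rose by 0.43 (SE 0.09, adjusted p = 0.000174) in siPcf11 and 0.39 (SE 0.09, adjusted p = 0.000403) in control cells.

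**Figure D1:**
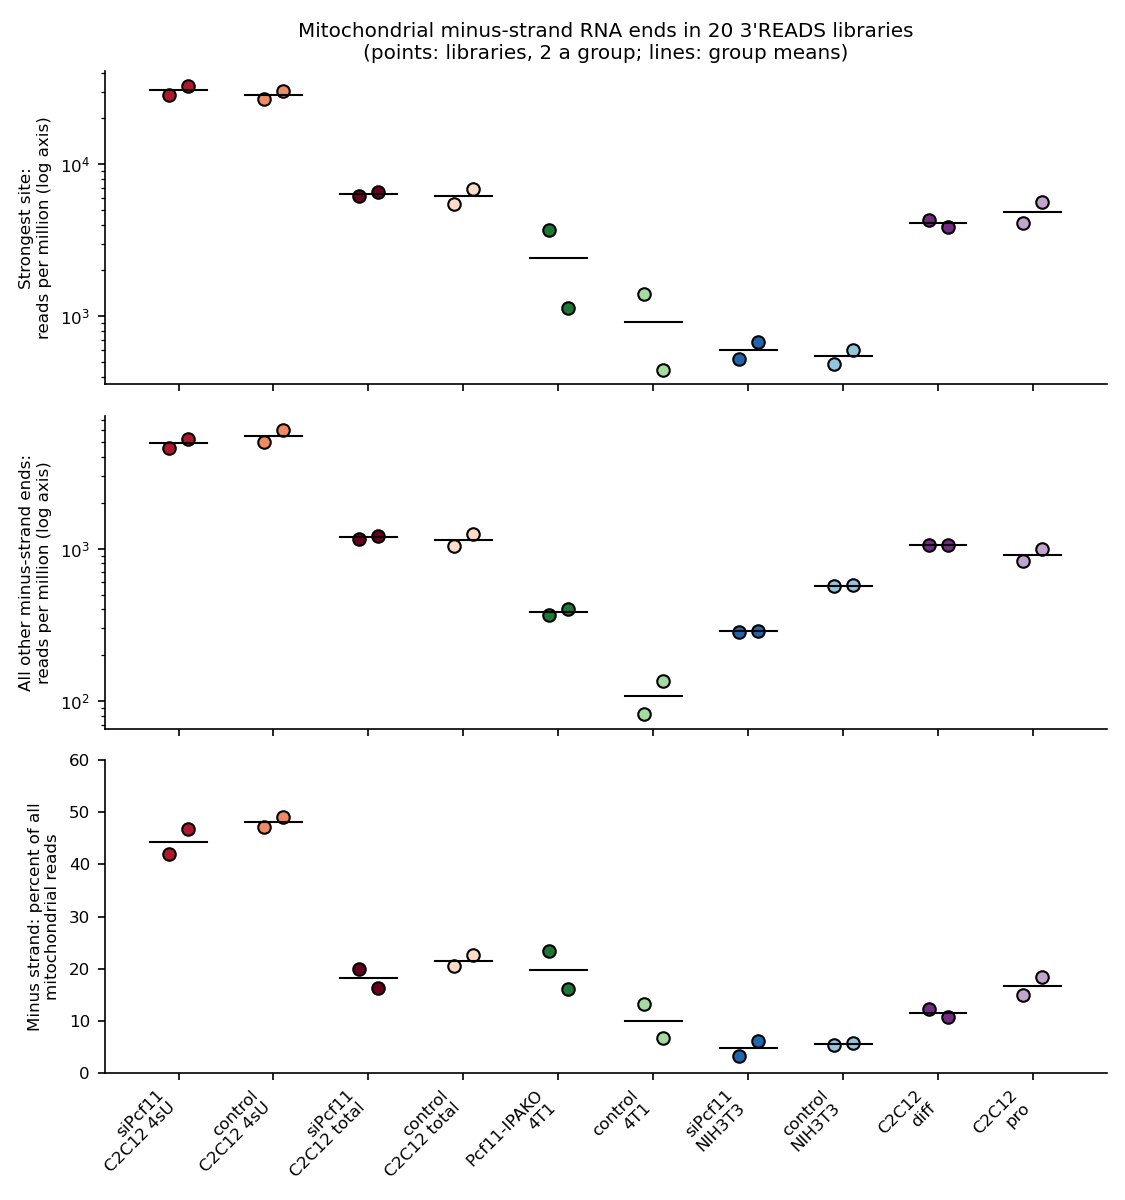
CPM at the strongest site (top, log axis) and at all other minus-strand ends (middle, log axis), and the minus strand as a percent of all mitochondrial reads (bottom), with a point for each library and a line at each group mean. The 4 C2C12 4sU libraries sit highest in all 3 panels, with 41.9% to 49.2% of mitochondrial reads on the minus strand.

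The balance of the 2 strands, which needs no scaling between libraries, differed in the same way. The minus strand took 41.9% and 46.8% of mitochondrial reads in siPcf11 4sU RNA and 47.2% and 49.2% in control 4sU RNA, against 20.0% and 16.2% in siPcf11 total RNA and 20.6% and 22.6% in control total RNA. Over the 4 4sU libraries the mean was 46.3% ± 3.07 against 19.8% ± 2.64 over the 4 total RNA libraries (SD, n = 4 each). The difference of 26.4 percentage points had an exact two-sided permutation p of 0.0286, the smallest this design gives. The permutations pooled siPcf11 with control libraries and did not pair 4sU libraries with the total RNA libraries named input. Without any single library the difference was 25.2 to 27.9 points with an exact permutation p of 0.0571, the smallest for 4 against 3. Reads outside the strongest site were also taken apart from it, here and in the comparisons that follow, a split chosen after seeing the data. Without the strongest site, the minus strand still took 11.5% ± 2.04 of mitochondrial reads in 4sU RNA and 3.74% ± 0.568 in total RNA (SD, n = 4 each, exact permutation p = 0.0286). The share of the strongest site within the strand, by contrast, was 85.0% ± 1.45 in 4sU RNA and 84.4% ± 0.302 in total RNA (SD, n = 4 each), with an exact permutation p of 0.4.

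Most stretches of the strand rose in 4sU RNA. The 1 kb bin that starts at 16001 and holds the strongest site had a mean of 34371 CPM in siPcf11 4sU RNA and 32267 CPM in control 4sU RNA, against 6924 CPM in siPcf11 total RNA and 6658 CPM in control total RNA. The next bin along the strand, from 15001, had 336 and 447 CPM in siPcf11 and control 4sU RNA, against 145 and 167 CPM in siPcf11 and control total RNA. The bins from 7001 and 8001 held no listed read in any of the 20 libraries. The bins from 9001 and 10001 held at most 14 reads in any group. On the plus strand of this stretch, Cox2, Atp8, Atp6, Cox3, Nd3 and Nd4l likewise had no main site within 3 nt of their ends. Whether ends in this stretch could be listed at all was not tested. In siPcf11 cells 10 of the 13 bins tested rose (76.9%, against 7.02% of all 1 kb bins that rose, 8.6% that fell and 15.6% that changed), and the bins from 1, 1001 and 13001, which holds most of Nd6, did not pass. In control cells 12 of 13 rose (92.3%, against 12% that rose and 22.1% that changed), by 0.73 in the bin from 6001 to 2.30 in the bin from 16001. The bin from 13001 had 87.4 CPM in siPcf11 4sU RNA and 84.0 CPM in siPcf11 total RNA, a log2 fold change of 0.07 (SE 0.16, adjusted p = 0.838), and 126 CPM in control 4sU RNA against 75.5 CPM in control total RNA, a rise of 0.76 (SE 0.16, adjusted p = 2.86e-05).

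**Figure D2:**
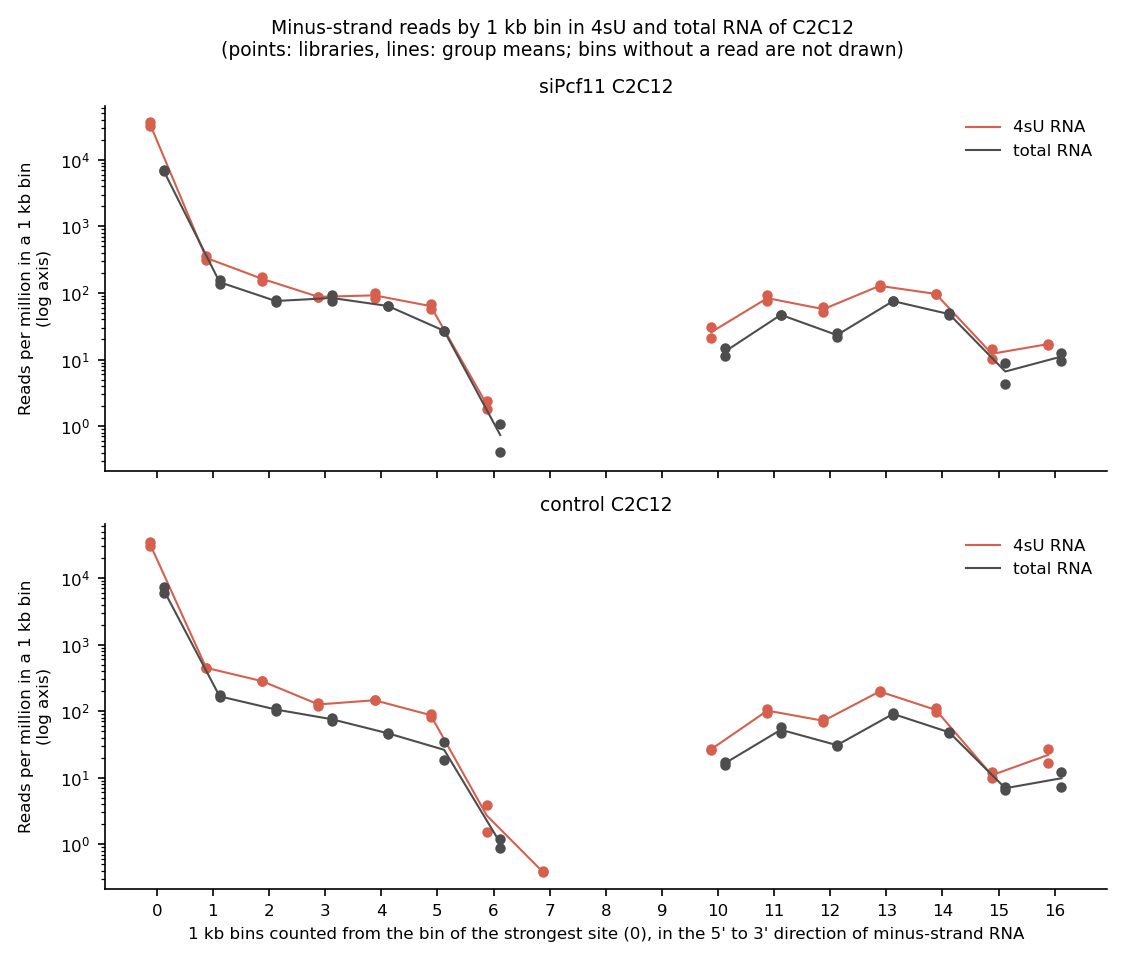
Minus-strand CPM (log axis) in each 1 kb bin in 4sU and total RNA of siPcf11 (top) and control (bottom) C2C12, with bins ordered along the minus strand from the bin of the strongest site (0). The 4sU libraries lie above the total RNA libraries in most bins. No library has a listed read 8 or 9 bins away from the strongest site.

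Among places with at least 4 sites tested, ends inside minus-strand tRNAs and control-region ends other than the strongest had the highest median increases in 4sU RNA, and ends inside Nd6 the lowest. Of 100 minus-strand main sites that passed the filter on low counts, 38 rose and 2 fell in siPcf11 cells, where 14.3% of all sites changed and 7.88% rose, and 47 rose and none fell in control cells, where 21.6% changed and 9.27% rose. Their median log2 fold change was 1.25 in siPcf11 and 1.31 in control cells, against 0.01 over all sites tested in siPcf11 and -0.08 in control cells. A site could pass the filter through 4sU libraries alone. The counts and medians of tested sites, also those by place, can therefore favour sites that are high in 4sU RNA. All sites of the genome went through the same filter. These comparisons share no library but come from 1 fit, and 28 sites rose in both, 73.7% of the 38 and 59.6% of the 47. The overlap over all sites of the genome was not counted. The counts varied with the libraries used. In siPcf11 cells 21 sites passed without replicate 2 of the 4sU libraries and 23 without replicate 2 of the total RNA libraries. In control cells 27 passed without replicate 2 of the 4sU libraries and 31 without replicate 1 of the total RNA libraries.

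By place, the strongest site rose in both treatments, as did 9 of the 13 other control-region sites tested in each and all 4 tested sites inside minus-strand tRNAs, whose median log2 fold change was 2.79 in siPcf11 and 1.77 in control cells. The single site at the 3′ end of a minus-strand tRNA had 2.65 in siPcf11 and 1.68 in control cells and did not pass. Of 63 sites antisense to mRNA genes, 20 rose and 1 fell in siPcf11 cells, and 29 rose in control cells. Of 10 sites inside Nd6, 1 rose in siPcf11 cells and none rose in control cells. Summed over its sites, the control region without the strongest site had 3938 and 4119 CPM in siPcf11 and control 4sU RNA, against 650 and 550 CPM in siPcf11 and control total RNA, ratios of 6.06 and 7.49. Sites antisense to mRNA genes gave ratios of 2.05 in siPcf11 and 2.75 in control cells, sites before a tRNA 1.23 and 2.00, and sites inside Nd6 1.08 and 1.56. The class sums inside Nd6 were thus nearly equal in 4sU and total RNA of siPcf11 cells, at 62.2 and 57.6 CPM.

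**Figure D3:**
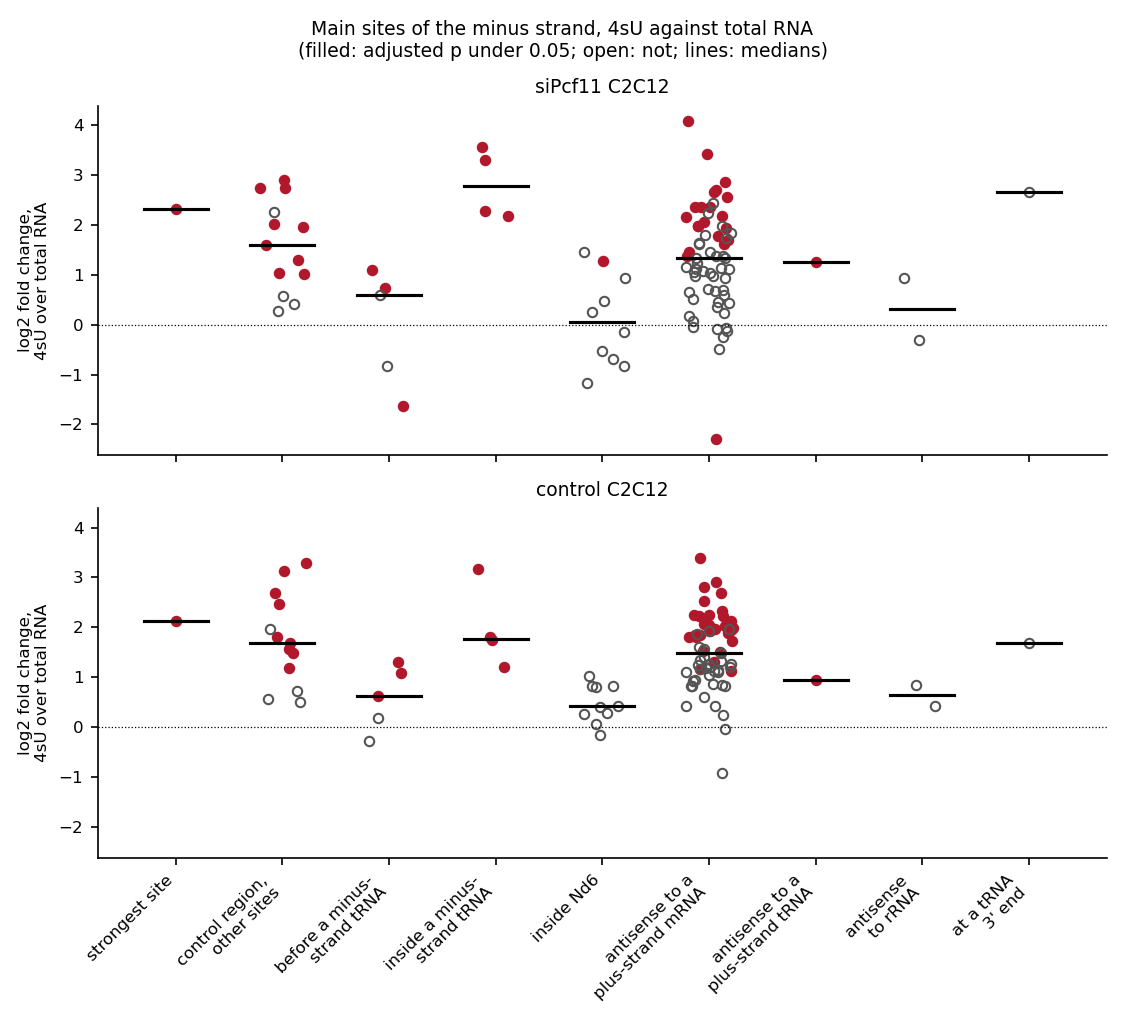
Log2 fold change between 4sU and total RNA of every minus-strand main site tested, by place on the mitochondrial genome, in siPcf11 (top) and control (bottom) C2C12, with filled points at an adjusted p under 0.05 and lines at class medians. The median is 0.05 in siPcf11 and 0.42 in control cells for sites inside Nd6, and 1.59 in siPcf11 and 1.68 in control cells for control-region sites other than the strongest.

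The site at 16169, which comes before the other strong control-region ends along the strand, had the largest increase among the 10 strongest sites. It had 2317 and 2673 CPM in siPcf11 4sU RNA and 2247 and 2880 CPM in control 4sU RNA, against 312 and 386 CPM in siPcf11 total RNA and 207 and 292 CPM in control total RNA. The groups did not overlap. It rose by 2.89 (SE 0.13, adjusted p = 7.57e-72) in siPcf11 and 3.29 (SE 0.13, adjusted p = 1.25e-83) in control cells. The strongest site rose by 2.32 (SE 0.11) and 2.13 (SE 0.11). The site at 16037 rose by 2.74 (SE 0.13) in siPcf11 and 2.69 (SE 0.13) in control cells.

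The weaker control-region ends had smaller values. The site at 15909 rose by 1.30 (SE 0.20) in siPcf11 and 1.19 (SE 0.19) in control cells, and the site at 2695, antisense to TrnL1, rose by 1.25 (SE 0.21) and 0.95 (SE 0.20). Neither 16097 nor 15988 passed in either treatment. At 16097 the log2 fold change was 0.41 (SE 0.24) in siPcf11 and 0.56 (SE 0.22) in control cells, and at 15988 it was 0.28 (SE 0.29) and 0.72 (SE 0.28).

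The ends at TrnQ moved in opposite directions in siPcf11 cells, and both rose in control cells. Inside this tRNA, the site at 3806 had 40 and 40 reads in siPcf11 4sU RNA and 44 and 63 in control 4sU RNA, against 1 and 6 in siPcf11 total RNA and 7 and 3 in control total RNA, and it rose by 3.56 (SE 0.48) in siPcf11 and 3.18 (SE 0.43) in control cells. At the border before the same tRNA, the site at 3843 had 11.4 and 13.8 CPM in siPcf11 4sU RNA and 86.9 and 89.3 CPM in control 4sU RNA, against 39.7 and 41.5 CPM in siPcf11 total RNA and 60.0 and 49.7 CPM in control total RNA. The siPcf11 4sU libraries were the lowest of the 8. At 3843 the level fell by 1.63 (SE 0.25, adjusted p = 2.71e-08) in 4sU against total RNA of siPcf11 cells, and rose by 0.62 (SE 0.18, adjusted p = 0.00480) in control cells. The rise in control cells did not pass without replicate 2 of the 4sU libraries (0.61, adjusted p = 0.0594) or without replicate 2 of the total RNA libraries (0.48, adjusted p = 0.145).

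Within the strand, all 5 tRNA borders took a smaller share in 4sU RNA than in total RNA in both treatments. This was tested as site use, the change of a site relative to the other sites of its strand (edgeR's diffSpliceDGE). Changes of use are given as natural logarithms, so they are not on the log2 scale of the fold changes. Of the 100 sites, 1 rose and 28 fell in use in siPcf11 cells, where 2.71% of all sites changed, and 2 rose and 20 fell in control cells, where 3.7% changed. The falls included the 5 tRNA borders and 7 of the 10 sites inside Nd6 in each treatment. In siPcf11 cells the single rise was 16169 (natural-log change of use 0.41, adjusted p = 0.00116). In control cells the rises were 16169 (0.79, adjusted p = 5.03e-13) and 16037 (0.37, adjusted p = 0.00586). Use is relative to a strand that the strongest site dominates, so a fall in use can go with a higher level. In control cells the falls in use at the borders were 0.74 at TrnE, 0.59 at TrnP, 1.36 at TrnY, 1.69 at TrnN and 1.06 at TrnQ. In siPcf11 cells 18 sites passed without replicate 1 of the total RNA libraries, and in control cells 9 passed without replicate 2 of the 4sU libraries and 10 without replicate 1 of the total RNA libraries.

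In 4sU RNA, siPcf11 cells had fewer ends than control cells at 4 of the 5 tRNA borders, where 47.1% of all main sites changed and 22.5% fell. The border before TrnQ fell by 2.51 (SE 0.23, adjusted p = 5.58e-23), with 25 and 29 reads in siPcf11 and 223 and 237 in control 4sU RNA. The border before TrnP had 56.3 and 66.3 CPM in siPcf11 and 137 and 130 CPM in control 4sU RNA, and fell by 0.83 (SE 0.17, adjusted p = 6.91e-06). The border before TrnE had 76.9 and 74.9 CPM in siPcf11 and 162 and 131 CPM in control 4sU RNA, and fell by 0.65 (SE 0.16, adjusted p = 0.000285). At each of these 3 sites the siPcf11 libraries lay below both control libraries.

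The border before TrnY (tyrosine tRNA, position 5327) had 15 and 17 reads in siPcf11 and 45 and 44 in control 4sU RNA, and fell by 0.89 (SE 0.34, adjusted p = 0.0237). That call was lost without either control 4sU library or without siPcf11 replicate 1, at adjusted p = 0.0951, 0.0598 and 0.105, and DESeq2 gave an adjusted p of 0.109. The border before TrnN (asparagine tRNA, position 5160), named here to complete the set after its values were seen, went the other way. It had 29 and 37 reads in siPcf11 and 26 and 26 in control 4sU RNA, and rose by 0.92 (SE 0.33, adjusted p = 0.0141). With library totals as the only scaling that change was 0.63 (adjusted p = 0.104), and without replicate 2 of the siPcf11 4sU libraries it was also 0.63 (adjusted p = 0.245). DESeq2 gave 0.90 (adjusted p = 0.107). Without replicate 1 or 2 of the control 4sU libraries its adjusted p was 0.0566 and 0.0715.

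**Figure D4:**
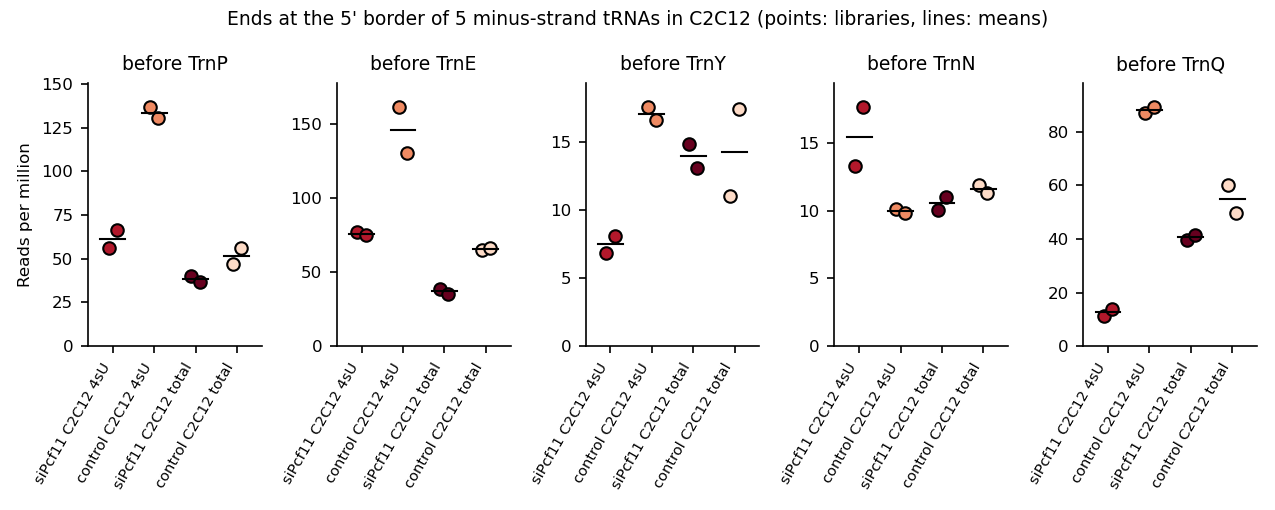
CPM at the ends just before the 5 minus-strand tRNAs in siPcf11 and control 4sU RNA and siPcf11 and control total RNA of C2C12, with a point for each library and lines at means. Before TrnQ the siPcf11 4sU libraries had 11.4 and 13.8 CPM, against 86.9 and 89.3 CPM in control 4sU RNA.

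In total RNA 1 of the 5 tRNA borders differed between siPcf11 and control cells, where 47.1% of all main sites changed and 25% fell. This was the border before TrnE, with 38.7 and 35.4 CPM in siPcf11 and 64.9 and 66.6 CPM in control total RNA, and fell by 0.66 (SE 0.19, adjusted p = 0.00192). Without replicate 2 of the siPcf11 total RNA libraries the fall was 0.48 (adjusted p = 0.108). Before TrnQ the log2 fold change was -0.26 (SE 0.20, adjusted p = 0.280), and before TrnP -0.26 (SE 0.20, adjusted p = 0.279). The difference between the 2 responses was itself tested, and among the 100 sites 2 passed, both more negative in 4sU RNA, where 0.488% of all sites passed and 0.129% were more negative. They were the border before TrnQ, at -2.25 (SE 0.31, adjusted p = 2.72e-08), and a site antisense to Nd5 at 12390, named after its values were seen, with 2 and 2 reads in siPcf11 4sU RNA and 14 and 13 in control 4sU RNA, against 16 and 5 in siPcf11 total RNA and 1 and 5 in control total RNA. For TrnP, TrnE, TrnY and TrnN the adjusted p of this difference was 0.425, 0.997, 0.440 and 0.554. With 6 of the 8 libraries left out in turn (all but replicate 2 of each total RNA group) 1 site passed. DESeq2 gave an adjusted p to 6 of the 100 sites and called none of them. The border before TrnQ was not among the 6, and its DESeq2 value was -2.31 (SE 0.38).

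For the strand as a whole, siPcf11 cells had slightly more minus-strand ends than control cells after scaling. The log2 fold change was 0.38 (SE 0.10, adjusted p = 0.000335) in 4sU RNA and 0.23 (SE 0.10, adjusted p = 0.0389) in total RNA, where 51.4% and 51.1% of all features changed. Both calls depended on the libraries or the scaling. Without replicate 2 of the siPcf11 4sU libraries the first was 0.23, and without replicate 1 of the control total RNA libraries the second was 0.07, and neither passed. With library totals as the only scaling the median of all features moved by -0.31 in 4sU RNA and -0.18 in total RNA, and the strand was at 0.07 and 0.04. In 4sU RNA the strongest site was at 0.42 (SE 0.10, adjusted p = 8.00e-05) and the other reads of the strand at 0.14 (SE 0.11, adjusted p = 0.258). The use of the strongest site within the strand did not pass (natural-log change 0.03, adjusted p = 0.951). That site holds most of the strand, which keeps its use near 0, so the use test cannot decide whether the 2 parts differ. In the fit of single sites the strongest site was at 0.40, and did not pass with library totals as the only scaling (0.11, adjusted p = 0.378), without the filter on low counts (0.26, adjusted p = 0.936) or without replicate 2 of the siPcf11 4sU libraries (0.22, adjusted p = 0.146). The plus strand rose by 0.60 (SE 0.09) in 4sU RNA and 0.57 (SE 0.09) in total RNA.

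Few bins or sites followed. In 4sU RNA 1 of 13 bins rose and 3 fell, where 51.1% of all bins changed, and 6 of 100 sites rose and 8 fell, where 47.1% of all sites changed. In total RNA 3 bins rose and none fell, where 51.7% changed, and 8 sites rose and 1 fell, where 47.1% changed. With library totals as the only scaling these splits were no rise and 6 falls among bins and 2 rises and 12 falls among sites in 4sU RNA, and 1 rise and 1 fall among bins and 6 rises and 3 falls among sites in total RNA. Without any single library of the comparison, 2 bins passed in 4sU RNA, and 9 sites passed there without replicate 2 of siPcf11. In total RNA 1 bin and 5 sites passed without replicate 1 of the control. In 4sU RNA 1 site rose and 11 fell in use, where 13.8% of sites changed, and in total RNA 5 rose and 1 fell, where 15.8% changed. Without any single library 4 to 7 sites passed for use in 4sU RNA, and without replicate 1 of the control 2 passed in total RNA. Among sites with a mean of at least 20 CPM in a group, the largest rise in total RNA was at 16169, with 588 and 948 reads in siPcf11 and 469 and 722 in control cells, at 0.65 (SE 0.13, adjusted p = 2.14e-06). The bin from 12001, antisense to Nd5, was the only bin whose response differed between 4sU and total RNA, at -1.14 (SE 0.24, adjusted p = 0.00228), where 0.564% of all bins passed. No bin passed without replicate 1 of the siPcf11 4sU, siPcf11 total RNA or control total RNA libraries, or without replicate 2 of the control 4sU or control total RNA libraries. That bin fell by 0.41 (SE 0.15, adjusted p = 0.0188) in siPcf11 4sU RNA, at 92 CPM against 146 CPM in control 4sU RNA, and rose by 0.73 (SE 0.18, adjusted p = 0.000226) in siPcf11 total RNA, at 63.7 CPM against 46.4 CPM in control total RNA.

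Nd6 left few ends on this strand. Its coding interval on the minus strand is chrM:13552-14070, and the main sites within 100 nt of its 3′ end were weak, with 138 reads at 13466, 42 at 13503 and 2 at 13528 beyond the gene and 163 at 13558, 54 at 13584, 204 at 13620 and 164 at 13648 inside it. The strongest end inside Nd6 was at 13981, near the start of the gene, with 419 reads over the 20 libraries. It had 12.4 and 13.4 CPM in siPcf11 4sU RNA and 7.02 and 15.4 CPM in control 4sU RNA, against 5.83 and 5.30 CPM in siPcf11 total RNA and 6.18 and 4.44 CPM in control total RNA. It rose by 1.27 (SE 0.41, adjusted p = 0.0194) in siPcf11 4sU RNA, a call that was lost without any of the 4 siPcf11 libraries (adjusted p = 0.0751 to 0.145), and was at 1.02 (SE 0.40, adjusted p = 0.0514) in control cells. Of the sites near the 3′ end that were tested (13466, 13558, 13620 and 13648), none differed between 4sU and total RNA in either treatment.

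In 4T1 cells the strand as a whole did not pass between Pcf11-IPAKO and control cells. At 4076 and 1533 CPM in Pcf11-IPAKO and 1477 and 577 CPM in control 4T1, the log2 fold change was 1.47 (SE 0.52, adjusted p = 0.0959), where 11.3% of all features changed and 9.97% rose. The value depended on the libraries. It was 0.43 without replicate 1 of Pcf11-IPAKO and 0.90 without replicate 2 of the control, neither passing, and it passed without replicate 2 of Pcf11-IPAKO (2.07) or replicate 1 of the control (2.27). The strongest site had 3708 and 1134 CPM in Pcf11-IPAKO, against 1396 and 442 CPM in control 4T1. Here the groups overlapped, since replicate 2 of Pcf11-IPAKO lay below replicate 1 of the control, and the log2 fold change was 1.42 (SE 0.58, adjusted p = 0.160). In the split chosen after seeing the data, ends outside the strongest site amounted to 368 and 399 CPM in Pcf11-IPAKO 4T1, against 81.7 and 135 CPM in control 4T1. There the groups did not overlap, and the reads rose by 1.83 (SE 0.32, adjusted p = 0.00513).

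Along the strand 6 of 11 bins tested rose in Pcf11-IPAKO 4T1 and none fell, where 11.3% of all bins changed and 9.96% rose. The bin from 13001, which holds most of Nd6, rose by 2.41 (SE 0.40, adjusted p = 0.00475), with a mean of 61.1 CPM in Pcf11-IPAKO against 11.4 CPM in control 4T1. The bin from 12001 had 28.0 and 24.7 CPM in Pcf11-IPAKO, against 0.451 and 7.46 CPM in control 4T1, and rose by 2.60 (SE 0.65, adjusted p = 0.0213). Replicate 1 of the control had a single read there, and replicate 2 had 28. No single site of the 19 tested passed in edgeR's test, where 2.48% of all sites did, although 16 had an unadjusted p under 0.05. DESeq2 called none, and 2 to 4 passed when a library was left out, whichever of the 4 it was. All 19 had a log2 fold change above 0. The border before TrnE had 30 and 204 reads in Pcf11-IPAKO, against 16 and 39 in control 4T1, with a log2 fold change of 1.99 (SE 0.53, adjusted p = 0.0844). No site changed in use, where 0.539% did, and none of the 19 had an unadjusted p under 0.05 there. The share of all reads of a library outside the sites tested was 8.86% and 9.77% in Pcf11-IPAKO, against 3.89% and 4.70% in control 4T1, so scattered low-count ends were more frequent in Pcf11-IPAKO over the whole genome. Thinned to 181 reads outside the strongest site, Pcf11-IPAKO 4T1 listed 68.2 and 65.8 minus-strand positions, against 46.0 and 50.8 in control 4T1. The part of this in the result was not tested.

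Control 4T1 cells had the fewest minus-strand ends of the control groups outside the strongest site. Those reads came to 81.7 and 135 CPM in control 4T1, against 572 and 574 CPM in control NIH3T3 and 1042 and 1241 CPM in control C2C12 total RNA. The 3 lines did not overlap, and the log2 fold change of 4T1 was -2.30 (SE 0.20, adjusted p = 1.15e-11) against NIH3T3 and -3.10 (SE 0.21, adjusted p = 1.84e-14) against C2C12. At the strongest site, control 4T1 had 1396 and 442 CPM, against 486 and 602 CPM in control NIH3T3 and 5492 and 6895 CPM in control C2C12 total RNA. There 4T1 overlapped with NIH3T3, and the log2 fold change of 0.86 (SE 0.34, adjusted p = 0.0291) rested on replicate 1 of 4T1: without it the fit of single sites gave -0.21 in place of 0.84, and without replicate 1 of NIH3T3 that fit gave 0.68 (adjusted p = 0.105). Against C2C12 the strongest site was lower in 4T1 by 2.46 (SE 0.35, adjusted p = 5.75e-07).

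For the whole strand the log2 fold change of control 4T1 against NIH3T3 was -0.02 (SE 0.29, adjusted p = 1), where 56.9% of all features changed, 25.3% upward and 31.6% downward. This value was 0.48 (adjusted p = 0.0427) without replicate 2 of control 4T1 and -0.87 (adjusted p = 0.00303) without replicate 1, past the threshold in opposite directions. Of 14 bins, 13 were lower in 4T1 than in NIH3T3 and only the bin from 16001 was higher, at 0.83 (SE 0.33, adjusted p = 0.0337), where 57% of all bins changed. With library totals as the only scaling no bin was higher and 13 were lower. Against C2C12, 13 of 14 bins were lower in 4T1, where 44.7% changed, and the whole strand was at -2.54 (SE 0.31, adjusted p = 2.08e-08). Some of these bins held few reads. The bin from 10001 had no read in control 4T1, 14 in control NIH3T3 and 5 in control C2C12 total RNA. The bin from 1 had 2 reads in control 4T1. Such bins could pass the filter on low counts only through groups in which they are high, so the bin counts are a description. The minus strand took 13.2% and 6.69% of mitochondrial reads in control 4T1, against 5.30% and 5.82% in control NIH3T3 and 20.6% and 22.6% in control C2C12 total RNA.

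Single sites are given as a description. Of 131 main sites tested, 66 were lower and 6 higher in control 4T1 than in NIH3T3, 55% in all, where 55.7% of all sites changed, 24.2% upward and 31.5% downward. Against C2C12, 83 were lower and 2 higher in 4T1, 64.9% in all, where 45.5% changed, 21.1% upward and 24.4% downward. Many of these sites passed the filter on low counts only through groups in which they are high. Of those called, 39 and 44 had no read in control 4T1. Another 3 had no read in control NIH3T3 and 2 had none in control C2C12 total RNA. No fold is given for such sites. Fitted on the compared libraries alone, 34 sites were lower and 1 higher than in NIH3T3, and 23 were lower than in C2C12. The border before TrnE had 7.22 and 10.4 CPM in control 4T1, against 25.5 and 32.1 CPM in control NIH3T3 and 64.9 and 66.6 CPM in control C2C12 total RNA, and was lower in 4T1 by 1.59 (SE 0.38, adjusted p = 0.000906) and 2.57 (SE 0.38). The border before TrnQ had 0.903 and 9.33 CPM in control 4T1, against 29.3 and 28.2 CPM in control NIH3T3 and 60.0 and 49.7 CPM in control C2C12 total RNA. The border before TrnP had few reads outside C2C12. It had 5 and 4 reads in control 4T1, and 0 and 0 in siPcf11 and 0 and 3 in control NIH3T3, against 106 and 139 in control C2C12 total RNA. The number of sites below C2C12 depended on the libraries: without replicate 2 of control 4T1, 44 sites were called.

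The places where the remaining reads ended also differed between the lines. Of minus-strand reads outside the strongest site, sites antisense to mRNA genes took a mean of 56.2% in siPcf11 NIH3T3 and 57.9% in control NIH3T3, 28.4% in Pcf11-IPAKO 4T1 and 15.8% in control 4T1, and 21.6% in siPcf11 and 22.2% in control C2C12 total RNA. The other sites of the control region took 20.0% and 13.5% in siPcf11 and control NIH3T3, 34.8% in Pcf11-IPAKO and 47.1% in control 4T1, and 54.9% in siPcf11 and 48.0% in control C2C12 total RNA. With 2 libraries a group an exact permutation test cannot give a p below 0.333, so these shares are given without a test. NIH3T3 had the highest shares antisense to mRNA genes of the 10 groups.

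**Figure D5:**
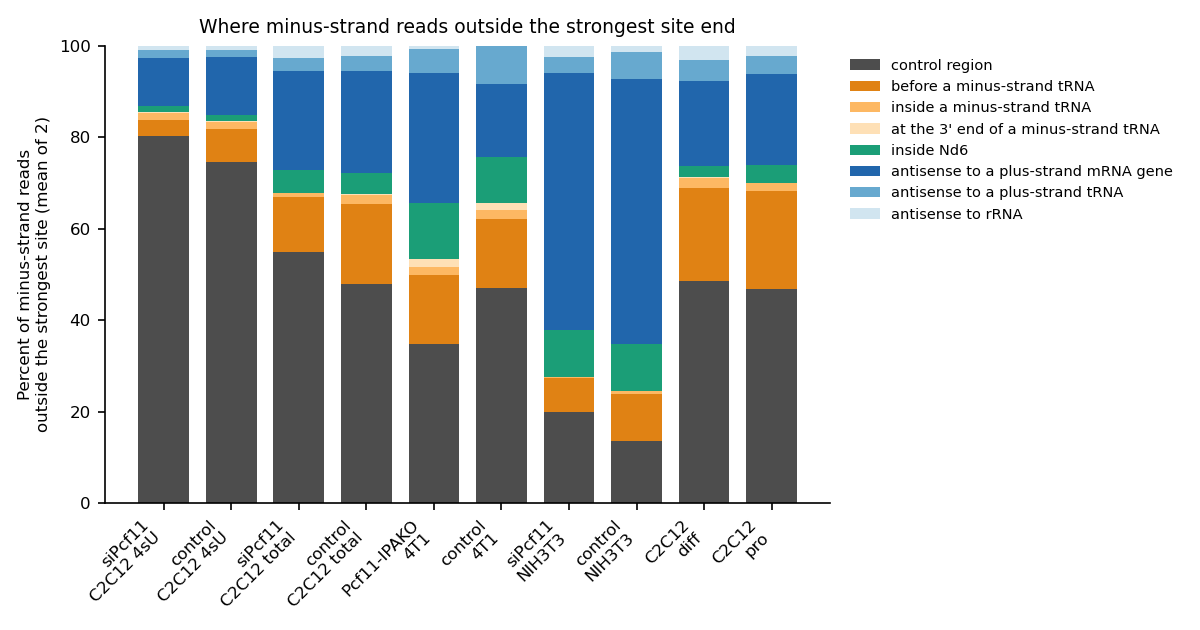
Mean share of minus-strand reads outside the strongest site by place, for each of the 10 groups (stacked bars, percent, 2 libraries a group). Sites antisense to mRNA genes take 56.2% and 57.9% in siPcf11 and control NIH3T3, and control-region sites take 80.3% and 74.5% in siPcf11 and control 4sU RNA of C2C12.

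In NIH3T3, no minus-strand change between siPcf11 and control cells passed, and 0% of all bins and sites did. Reads outside the strongest site came to 284 and 288 CPM in siPcf11, against 572 and 574 CPM in control NIH3T3. The groups did not overlap, and the log2 fold change was -0.97 (SE 0.20, adjusted p = 0.131). The strongest site had 520 and 681 CPM in siPcf11, against 486 and 602 CPM in control cells, which overlap, with a log2 fold change of 0.18 (SE 0.23). By edgeR's test none of 13 bins, none of 50 sites and none of 50 sites for use passed, with 8, 14 and 9 at an unadjusted p under 0.05, and DESeq2 called 2 of 11 bins and 1 of 6 sites to which it gave an adjusted p. The border before TrnQ had 14.7 and 14.6 CPM in siPcf11, against 29.3 and 28.2 CPM in control NIH3T3, at -0.94 (SE 0.31, adjusted p = 0.231). The border before TrnE had 7.52 and 4.18 CPM, against 25.5 and 32.1 CPM, at -2.28 (SE 0.42, adjusted p = 0.155). The counts depended on the siPcf11 libraries: bins, sites and sites for use passed when either siPcf11 library was left out. The share of all bins and sites that passed in those fits is not given here, so these calls cannot be set against the rest of the genome. The whole strand, at -0.30 (SE 0.20, adjusted p = 0.500), was -0.43 and past the threshold without replicate 2 of siPcf11.

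In differentiated C2C12 the strand as a whole did not pass, and ends outside the strongest site rose. Differentiated cells had 5379 and 4929 CPM on the minus strand, against 4920 and 6638 CPM in proliferating cells, at -0.02 (SE 0.10, adjusted p = 0.900), where 59.2% of all features changed. Both proliferating libraries bore on this value: it was -0.22 (adjusted p = 0.00722) without replicate 1 and 0.18 (adjusted p = 0.0310) without replicate 2, past the threshold in opposite directions. Reads outside the strongest site came to 1060 and 1053 CPM in differentiated cells, against 833 and 987 CPM in proliferating cells. They rose by 0.36 (SE 0.10, adjusted p = 0.000958), while the strongest site was at -0.10 (SE 0.10, adjusted p = 0.388). This split was fitted with TMM scaling and all libraries only, so how the rise depends on the scaling or on single libraries was not tested. The plus strand rose by 0.61 (SE 0.09, adjusted p = 6.53e-10), and the minus strand took 12.3% and 10.7% of mitochondrial reads in differentiated cells, against 14.9% and 18.4% in proliferating cells.

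Of 13 bins 8 rose and none fell in differentiated cells, where 59.3% of all bins changed, and of 50 sites 14 rose and 3 fell, where 56% changed. With library totals as the only scaling, which moved the median of all features by -0.15, 4 bins rose and 1 fell, and 8 sites rose and 4 fell. Without replicate 1 of the differentiated libraries 4 bins passed, and 10 to 12 sites passed without any single library, 10 of them without replicate 1 of the differentiated or replicate 2 of the proliferating libraries and 11 without replicate 2 of the differentiated libraries. In use 7 sites rose and 2 fell, where 9.5% of sites changed, and 4 passed without replicate 2 of the proliferating libraries.

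Among sites with a mean of at least 20 CPM in a group, the border before TrnY had the largest rise, with 39.8 and 36.3 CPM in differentiated and 24.5 and 20.5 CPM in proliferating cells, by 0.90 (SE 0.18, adjusted p = 7.13e-05). The control-region site at 16037 had 155 and 173 CPM in differentiated and 102 and 132 CPM in proliferating cells, and rose by 0.61 (SE 0.13, adjusted p = 9.20e-05). At both sites the groups did not overlap. The border before TrnE rose by 0.48 (SE 0.16, adjusted p = 0.00861) and that before TrnQ by 0.45 (SE 0.17, adjusted p = 0.0200), but neither passed with library totals as the only scaling (0.35 and 0.32), nor without replicate 2 of the proliferating libraries (0.29 and 0.39) or replicate 1 of the differentiated libraries (0.41 and 0.27). The border before TrnN fell by 1.20 (SE 0.42, adjusted p = 0.0129), with 9 and 14 reads in differentiated and 16 and 36 in proliferating cells. The site at 13648 inside Nd6 had 4 reads in differentiated and 24 in proliferating cells, and fell by 2.56 (SE 0.61, adjusted p = 0.000504), or by 2.43 (adjusted p = 0.0543) without replicate 2 of the differentiated libraries.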

How the data were processed

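Reads with a poly(A) tail were counted per poly(A) site in 20 3′READS libraries. The authors deposited raw counts per site, by position and strand on mm9. Per the submitters' processing notes, the tools included STAR, Bowtie2 and cutadapt (no versions). How reads were clustered into sites is not given in the sources used here. Positions listed for a site differ between cell lines, so they were joined within 12 nt of a stronger one.

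All sites of the genome were fitted with edgeR 4.0.16 (quasi-likelihood, TMM scaling, filterByExpr with a minimum count of 10) in R 4.3.3, as 1 kb bins, main sites and site use (diffSpliceDGE), with Benjamini-Hochberg adjustment at 0.05. The chrM strands as a whole were tested among the 1 kb bins. The 8 C2C12 libraries of the siRNA experiment were fitted together, the 4T1, NIH3T3 and differentiation libraries apart, and comparisons between lines in all 20. Alternatives used DESeq2 1.42.0, other scalings, filters, windows and left-out libraries. The fits of control 4sU against total RNA, Pcf11-IPAKO 4T1 and differentiation were also run on simulated counts. These had the same spread for all features, and only features with many reads were changed. They do not cover low-count sites, the wider replicate spread in 4T1 and siPcf11 NIH3T3, the NIH3T3 fit or the comparisons between lines. Python 3.11.15 was used for the other steps.

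Site use was fitted within groups of sites chained at up to 5 kb, each chrM strand being 1 group. Genes were placed by the coordinates of the RefSeq gene table, whose chrM numbering was checked against the tables' plus-strand sites. Of 14 plus-strand protein and rRNA genes, 6 had a site of at least 1000 reads within 3 nt of their end. The others had no site there, so the numbering was not checked at their ends. They were Cox1, Cox2, Atp8, Atp6, Cox3, Nd3 and Nd4l, which follow one another, and Nd5. Only the coordinates of Nd6 are printed. No sequence is shown. The RNA-seq files were not used here.

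The members and lists were chosen with earlier results of these data known. Sites were named by a rule: the 10 with the highest mean CPM over the 20 libraries, for each comparison the 2 called sites with the largest rise and the 2 with the largest fall among those with a mean of at least 20 CPM in a group, all main sites within 100 nt of the end of Nd6, and the strongest site inside it. Equal replicate numbers were not taken to pair libraries, since each comparison has only 2 pairs and no label ties them.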

Additional observations from a re-analysis of the deposited data

Results flagged for a closer look

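In 3 cases a value stood out because the siPcf11 response differed between 4sU and total RNA of C2C12 by a test of the difference itself, edgeR's interaction term with Benjamini-Hochberg adjustment over all features. Each is the log2 fold change of siPcf11 over control in 4sU RNA minus that in total RNA. The end just before TrnQ at 3843 had -2.25 (SE 0.31, adjusted p = 2.72e-08), with 25 and 29 reads in siPcf11 and 223 and 237 in control 4sU RNA. The site antisense to Nd5 at 12390 had -4.22 (SE 1.09, adjusted p = 0.0295), on at most 16 reads in any of the 8 libraries. The bin from 12001, which holds that site, had -1.14 (SE 0.24, adjusted p = 0.00228). Their cause was not tested.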

How the results depend on the processing

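The rise of the strand in 4sU RNA passed under every alternative run in both treatments. Its share of mitochondrial reads differed by 25.2 to 27.9 points without a single library.

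Without the low-count filter, 21 sites in siPcf11 and 28 in control cells passed between 4sU and total RNA (40 and 47 with it) and 19 and 12 for use (29 and 22 with it). For siPcf11 the strand was at 0.22 in total RNA and 0.22 in 4sU RNA and did not pass, with 1 bin, 3 sites and 2 sites for use in total RNA and 5 sites and 3 for use in 4sU RNA. It gave 3 bins and 1 site in 4T1 Pcf11-IPAKO, 3 bins and 3 sites in NIH3T3, 4 bins and 9 sites in differentiation, 46 sites between 4T1 and C2C12, 1 site for the difference of the siPcf11 responses, and strand values of 0.13 between 4T1 and NIH3T3 and -0.0039 for that difference. With DESeq2, 19 of 27 sites in siPcf11 and 22 of 42 in control cells that had an adjusted p passed between 4sU and total RNA. It gave 1 bin, 5 sites and a strand value of 0.26, not passing, for siPcf11 in total RNA, 2 bins and 4 sites in 4sU RNA, 2 bins and 1 site in NIH3T3, 2 bins and 6 sites in differentiation, and 0 of 6 sites with an adjusted p for the difference of the responses.

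With library totals as the only scaling, the strand was at 0.041 in total RNA and 0.068 in 4sU RNA for siPcf11 and did not pass, and 5 bins passed in differentiation. Fitted on the compared libraries alone, the strand was at 0.22 for siPcf11 in total RNA and 0.029 between 4T1 and NIH3T3, and 35 and 23 sites passed for 4T1 against NIH3T3 and C2C12. Without the strongest site, an alternative chosen after seeing the data, the strand was at 0.24 and 0.14 for siPcf11 in total and 4sU RNA, not passing. It was at 1.83 in Pcf11-IPAKO, -2.30 between 4T1 and NIH3T3, 0.36 in differentiation and -0.10 for the difference of the responses. This alternative was run with TMM scaling and all libraries only.

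Replicate numbers were not taken as pairs. Deviations of same-numbered libraries correlated at 0.333 in 4T1 and between -0.0179 and 0.0635 in the other group pairs. With the replicate block the strand in Pcf11-IPAKO 4T1 was at 1.44 (adjusted p = 3.13e-13), with 11 bins and 12 sites against 6 and none without it, and no other whole-strand value or count of the set moved past its limit.

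Leaving out a library gave 21 to 32 sites and 18 to 25 for use between 4sU and total RNA in siPcf11 cells, and 27 to 37 sites and 9 to 19 for use in control cells. For siPcf11 it gave a strand value of 0.073 to 0.39, 1 to 3 bins, 5 to 11 sites and 2 to 5 for use in total RNA, and 0.23 to 0.47, 2 bins, 9 to 10 sites and 4 to 7 for use in 4sU RNA. It gave 0.43 to 2.27 and 2 to 4 sites in Pcf11-IPAKO 4T1, and -0.43 to -0.22, 0 to 10 bins, 0 to 26 sites and 0 to 23 for use in NIH3T3. Differentiation had -0.22 to 0.18, 4 to 7 bins, 10 to 12 sites and 4 to 9 for use. The strand between 4T1 and NIH3T3 was at -0.87 to 0.48, 44 to 73 sites passed between 4T1 and C2C12, and the difference of the responses had -0.092 to 0.30, 0 to 1 bins and 1 to 2 sites.

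Between 4T1 and NIH3T3, site 16037 had -0.73 with a 24 nt window (3.14 with 12 nt), and 16123 had -0.21 without replicate 1 of control 4T1 and 1.41 without replicate 2, and -13.66 on exact positions, since the tables give it another position in 4T1. Sites 13620, 13648 and 16169 gave no value on exact positions there. Site 16169 is listed at 16164 in 4T1 and at 16161 in NIH3T3. At 16037 itself control NIH3T3 had no read, with 7 reads at 16026 and 99 at 16054. The 24 nt window joins 16054 to 16037 and the 12 nt window does not. The cause of the other cases was not tested. Sites with few reads limit what can be seen in 4T1 and NIH3T3.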

Other observations

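A weak end antisense to Nd5, at position 12924 with 284 reads over the 20 libraries, was chosen after its values were seen. It had 25 and 31 reads in siPcf11 total RNA of C2C12, against 9 and 8 in control total RNA, and rose by 2.00 (SE 0.43). In 4sU RNA it had 21 and 29 reads in siPcf11 cells, against 20 and 10 in control cells, and rose by 1.31 (SE 0.40). Differentiated C2C12 had 25 and 21 reads there, against 3 and 2 in proliferating C2C12, and it rose by 3.09 (SE 0.56). In NIH3T3 it had 12 and 10 reads in siPcf11, against 27 and 29 in control cells, at -1.30 (SE 0.52, adjusted p = 0.290 by edgeR). The other settings and left-out libraries were not run for this site.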
